A study of Mus musculus with 6 samples.

Results

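At the nuclear periphery, the protein PRR14 holds heterochromatin against the nuclear lamina. It binds HP1 proteins, which read methylated histone H3 on silent chromatin, and A-type lamins, which form part of the filament meshwork under the inner nuclear membrane. PP2A, a serine/threonine phosphatase built from a scaffold, a catalytic and a regulatory subunit, also binds PRR14. In skeletal muscle the lamina bears mechanical load, and mutations of the A-type lamin gene cause muscular dystrophy.

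The genes described here are Prr14, its paralog Prr14l, the lamin genes Lmna, Lmnb1 and Lmnb2, the HP1 genes Cbx1 (HP1 beta), Cbx3 (HP1 gamma) and Cbx5 (HP1 alpha), and the PP2A genes Ppp2r1a (scaffold) and Ppp2ca (catalytic). They were chosen by name, and all 10 were among the 22036 genes of the deposited table. Nanopore cDNA reads were counted in quadriceps femoris, a thigh muscle, from 3 libraries of Prr14-WT mice (WT) and 3 of Prr14-KO mice (KO). The sources used here do not give how the knockout was made, which exons it removes, or the age, sex and strain of the mice. Nothing says whether each library is a separate mouse, so a p-value reflects only how far these libraries spread.

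Libraries held 1436099 to 1712975 counts. Levels are CPM (counts divided by a TMM-scaled library size), given in the order of replicates 1 to 3 of each genotype. Errors shown as ± are SDs over the 3 libraries of a genotype. All 12 skeletal muscle fibre markers examined were among the tested genes, and their summed level was 182300 to 229000 CPM in WT and 132600 to 147700 CPM in KO. Of these markers 5 passed as lower in KO, against 3.28% of all tested genes, and 7 did not pass. The part of this difference in the results below was not tested. In bulk tissue, fewer cells of a type and less RNA per cell cannot be told apart.

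None of the 7 tether genes with enough reads to be tested passed between genotypes, and the other 3 (Prr14l, Lmnb1 and Lmnb2) were too low to test. The edgeR adjusted p-values of the 7 ran from 0.196 (Prr14) to 0.989 (Cbx5). Over all 6680 tested genes, 6.26% passed (adjusted p under 0.05), 2.98% as higher and 3.28% as lower in KO. At an unadjusted p under 0.05, Prr14 was the 1 of 7, against 20% of all genes. DESeq2 and limma-voom also called 0 of the 7. Their median log2 fold change (KO minus WT) was 0.11, beside 0.017 for all tested genes, and it turned negative without KO replicate 2 (-0.0054) or KO replicate 3 (-0.023). Scaled by library totals instead, the median of all genes became 0.251, and Ppp2r1a then passed as higher (edgeR log2 fold change 0.61, adjusted p = 0.0421).

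**Figure D1:**
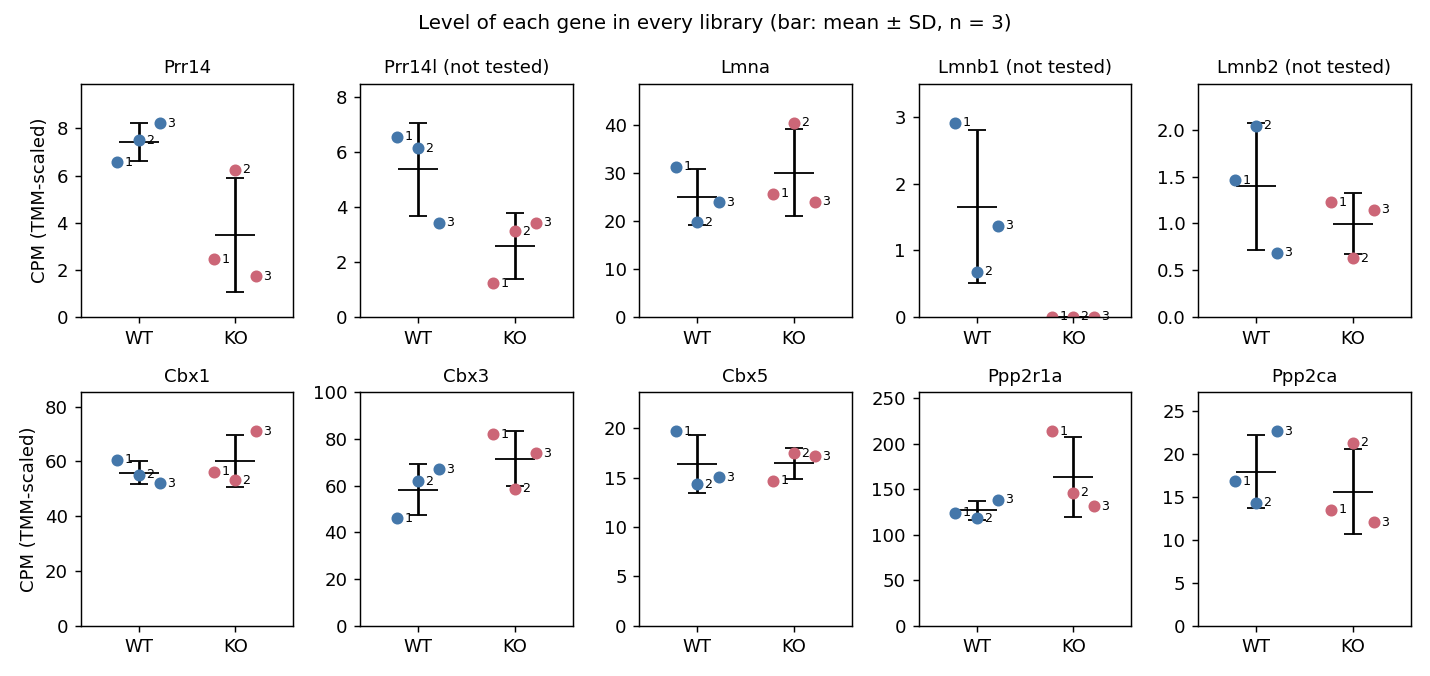
Level of each of the 10 genes in CPM (vertical axis, from 0, with its own scale in each panel) in the WT and KO libraries, with points numbered by replicate and bars for the mean ± SD (n = 3). The KO points of Prr14 and Lmnb1 lie below all WT points, and for the other 8 genes the genotypes overlap.

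Prr14 (ENSMUSG00000030822, GRCm38 chromosome 7, 127459611 to 127476759, plus strand) was among the least abundant genes that could be tested. Its level was 6.57, 7.50 and 8.22 CPM in the WT libraries and 2.45, 6.25 and 1.72 CPM in the KO libraries. Every KO library lay below every WT library, as 12.2% of tested genes did. KO replicates 1 and 3 stood at 33.0% and 23.1% of the WT mean, and KO replicate 2 stood at 84.1%. Exact Poisson 95% intervals, which cover counting error only, were 3.0 to 11.5 CPM for the 10 counts of KO replicate 2 and 0.354 to 5.02 CPM for the 3 counts of KO replicate 3. These intervals overlapped each other and the interval of WT replicate 1 (3.0 to 12.5 CPM). The log2 fold change was -1.10 (95% interval -2.09 to -0.11, edgeR adjusted p = 0.196), and without KO replicate 2 it was -1.80 (edgeR adjusted p = 0.0800). Because the deleted exons are not given, reads of the remaining gene could not be told from reads of an intact one.

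Few genes around Prr14 were read deeply enough to be tested. Within 100 kb the annotation placed 21 other genes. The table held 11 of them, and only Srcap, a chromatin remodelling ATPase, was tested. Srcap averaged 9.57 ± 1.80 CPM in WT and 6.36 ± 2.75 CPM in KO (edgeR log2 fold change -0.57, adjusted p = 0.448). Fbrs, the nearest measured neighbour at 2440 bases, had 3, 3 and 3 counts in WT and 2, 4 and 3 in KO. A further transcript, B130055M24Rik, overlaps the annotated Prr14 locus by 750 bases on the same strand and was not in the table, so reads from it could not be separated.

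Prr14l (ENSMUSG00000054280, chromosome 5, 32789820 to 32854256, minus strand) was below the filter on low counts. It had 9, 9 and 5 counts in WT and 2, 5 and 6 counts in KO, which is 5.37 ± 1.70 and 2.59 ± 1.2 CPM. The genotypes overlapped at WT replicate 3 and KO replicate 3. Its overlapping neighbour Gm20671 shares 575 identical bases with it and had 0 counts in all libraries. A processed pseudogene, Gm20796, matches the Prr14l transcript at 94.1% identity over 4504 bases. Gm20796 was not in the table, so reads from it could not be separated. Summed over libraries, the KO to WT ratio was 0.488, with an exact binomial 95% interval of 0.227 to 1.00 for counting error. In an edgeR fit without the filter its log2 fold change was -1.02 (SE 0.55, adjusted p = 0.423). Prr14 made up 58.5 ± 10.7% of the reads of the paralog pair in WT and 55.6 ± 19.2% in KO, on 6 to 20 reads per library (two-sided exact permutation p = 0.8).

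Among the lamins, Lmna gave most reads. This gene (ENSMUSG00000028063, chromosome 3, 88480147 to 88509956, minus strand) encodes lamins A and C, which the counts do not separate. Its level was 31.4, 19.8 and 24.0 CPM in the WT libraries and 25.7, 40.6 and 24.1 CPM in the KO libraries. KO replicate 2 was highest, and the other KO libraries lay inside the WT range. The log2 fold change was 0.27 (SE 0.26, 95% interval -0.28 to 0.82, edgeR adjusted p = 0.628), and without KO replicate 2 it was -0.0054 (edgeR adjusted p = 0.996). The interval allows a KO level from 0.822 to 1.76 times that of WT.

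The B-type lamins, which stay anchored in the membrane by a farnesyl group, were at the edge of detection. Lmnb1 (ENSMUSG00000024590, chromosome 18, 56707813 to 56753424, plus strand) had 4, 1 and 2 counts in WT and 0 counts in each KO library. Against a floor of 3 counts over the KO group, the observed WT level was 2.70-fold higher, which leaves out the counting error of the 7 WT reads. The exact binomial 95% interval of the KO to WT ratio, which covers counting error only, ended at 0.599. Over libraries the two-sided exact permutation p was 0.1, the smallest that 3 against 3 allow, and the edgeR fit without a filter gave an adjusted p of 0.106, so a difference was not established. Lmnb2 (ENSMUSG00000062075, chromosome 10, 80901203 to 80918245, minus strand) had 2, 3 and 1 counts in WT and 2, 1 and 2 in KO, with a ratio of 0.719 (exact interval 0.174 to 2.83).

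Within the lamin reads, B-type genes made up 10.8 ± 2.48% in WT and 3.54 ± 1.75% in KO. WT libraries had 6 of 49, 4 of 33 and 3 of 38 lamin reads from the B-type genes, and KO libraries had 2 of 44, 1 of 66 and 2 of 44. The genotypes did not overlap, while the Wilson 95% intervals of single libraries did (2.72 to 20.8% for WT replicate 3 and 1.26 to 15.1% for KO replicate 1). The two-sided exact permutation p was 0.1 (0.35 adjusted over the 7 shares compared), the smallest possible. The KO minus WT difference was -7.22 percentage points, or -12 with counts divided by exon length. Markers of dividing cells, in which Lmnb1 is abundant, summed to 55.4, 35.4 and 28.8 CPM in WT and 37.3, 37.5 and 47.5 CPM in KO. A large part was Pcna, the only 1 of these 12 markers with enough reads to be tested. Pcna gave 26.3, 19.8 and 19.2 CPM in WT and 18.4, 21.2 and 29.2 CPM in KO. Leukocyte markers summed to 563, 348 and 166 CPM in WT and 210 to 231 CPM in KO. Both lists were highest in WT replicate 1, the library with 4 of the 7 Lmnb1 reads. So were the summed markers of fibroblasts, Schwann cells, adipocytes and red blood cells, so this was not particular to them, and their part in the Lmnb1 counts was not tested.

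No HP1 gene passed the test, and Cbx5 had the fewest reads of the 3 in every library. Cbx1 (ENSMUSG00000018666, chromosome 11, 96789127 to 96808640, plus strand) stood at 60.6, 55.2 and 52.0 CPM in the WT libraries and 56.3, 53.1 and 71.0 CPM in the KO libraries. Only KO replicate 3 lay outside the WT range, and the log2 fold change was 0.11 (SE 0.17, 95% interval -0.25 to 0.47, edgeR adjusted p = 0.789). Without that library it was -0.034. A processed pseudogene, Gm7128, matches the Cbx1 transcript over 412 bases and was not in the table. Cbx5 (ENSMUSG00000009575, chromosome 15, 103191544 to 103239816, minus strand), the form most closely tied to pericentric heterochromatin, had 19.7, 14.3 and 15.1 CPM in WT and 14.7, 17.5 and 17.2 CPM in KO. Its KO libraries all lay within the WT range, with a log2 fold change of 0.013 (SE 0.25, 95% interval -0.52 to 0.54).

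Cbx3 (ENSMUSG00000029836, chromosome 6, 51470360 to 51483704, plus strand), a form also found along active genes, varied most of the 3 between libraries. Its level was 46.0, 62.0 and 67.1 CPM in WT and 82.0, 58.7 and 73.9 CPM in KO. KO replicates 1 and 3 exceeded every WT library and KO replicate 2 did not. The log2 fold change was 0.29 (SE 0.18, 95% interval -0.10 to 0.69, edgeR adjusted p = 0.427). It was 0.12 without WT replicate 1 and 0.18 without KO replicate 1. As shares of HP1 reads, Cbx1, Cbx3 and Cbx5 made up 42.9 ± 4.67%, 44.5 ± 7.16% and 12.6 ± 2.63% in WT. In KO these shares were 40.6 ± 3.53%, 48.2 ± 4.68% and 11.2 ± 2.04%. The differences of 1.33 to 3.68 percentage points were within the spread between libraries (two-sided exact permutation p = 0.5, 0.6 and 0.5, each 0.7 adjusted over the 7 shares).

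**Figure D2:**
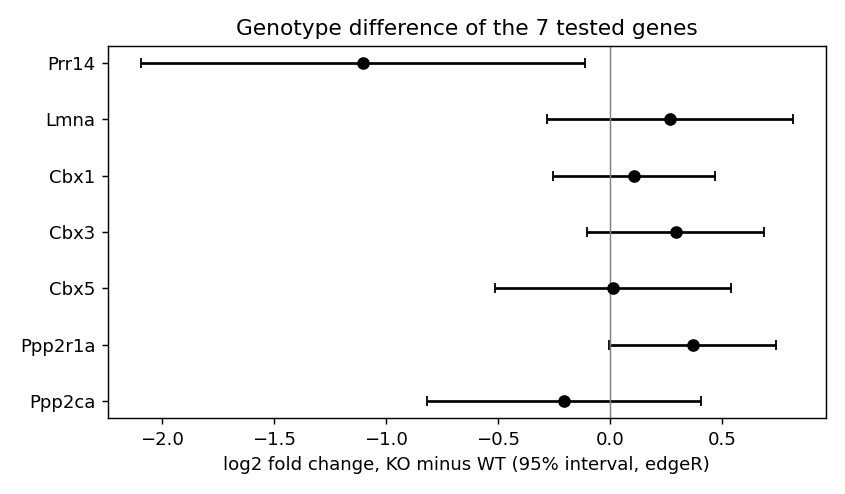
Log2 fold change, KO minus WT, of the 7 tested genes (points) with 95% intervals from the edgeR fit (lines). The interval of Prr14 lies below 0 (-2.09 to -0.11) and those of the other 6 genes cover 0; no adjusted p was under 0.05.

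Ppp2r1a, the scaffold on which the phosphatase is assembled, was the most abundant of the 10 genes. This gene (ENSMUSG00000007564, chromosome 17, 20945311 to 20965916, plus strand) had 124, 118 and 138 CPM in the WT libraries and 213, 146 and 131 CPM in the KO libraries. KO replicate 1 was far above the others at 168% of the WT mean, and KO replicate 3 lay inside the WT range. The log2 fold change was 0.37 (SE 0.17, 95% interval -0.0068 to 0.74, edgeR adjusted p = 0.262), and without KO replicate 1 it was 0.13 (edgeR adjusted p = 0.705). Ppp2r1a supplied 97.7 ± 0.0810% of scaffold reads in WT and 97.0 ± 0.608% in KO, the rest coming from Ppp2r1b (two-sided exact permutation p = 0.1, 0.35 adjusted over the 7 shares).

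Ppp2ca (ENSMUSG00000020349, chromosome 11, 52098681 to 52127778, plus strand), the main catalytic gene, was read less deeply. Its level was 16.8, 14.3 and 22.6 CPM in WT and 13.5, 21.2 and 12.03 CPM in KO. KO replicates 1 and 3 lay below the WT libraries and KO replicate 2 lay near the top of them. The log2 fold change was -0.21 (SE 0.29, 95% interval -0.82 to 0.41, edgeR adjusted p = 0.753), and with library totals it was 0.035. It was -0.49 without KO replicate 2, -0.0071 without WT replicate 3, -0.049 without KO replicate 3, -0.12 without KO replicate 1 and -0.38 without WT replicate 2. The antisense transcript 9430098F02Rik shares 1807 identical bases with the Ppp2ca transcript, and the sources used here do not say whether the authors' counting used strand. Ppp2ca gave 91.0 ± 5.26% of catalytic reads in WT and 87.1 ± 8.09% in KO (two-sided exact permutation p = 0.6), and the remainder came from Ppp2cb.

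Expressed per kilobase of exon, WT levels ran from Ppp2r1a at 37.2 CPM per kb to Lmnb2 at 0.326 CPM per kb. Cbx1 (13.1), Cbx3 (9.74) and Lmna (4.29 CPM per kb) followed Ppp2r1a, each with all 3 WT libraries above those of the next gene. Next came Ppp2ca (2.39), Cbx5 (1.82) and Prr14 (1.67 CPM per kb), where Ppp2ca overlapped Cbx5 and Cbx5 overlapped Prr14. Prr14 lay above Lmnb1 (0.559) in all WT libraries, and Lmnb1, Prr14l and Lmnb2 overlapped each other in turn. Nanopore cDNA reads can span whole transcripts, so division by length is only 1 way to set genes side by side.

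Among partner genes of the lamina, Mlip and Plpp7 were lower in KO. Of 31 genes for lamin processing and lamina partners 23 were tested, 2 fell, 0 rose and 21 did not pass, where 3.28% of all genes were lower. The list's median log2 fold change was -0.051, and 0.014 without KO replicate 2, a fit in which 25 of its genes were tested. Mlip, which encodes a muscle-enriched protein that binds lamin A/C, had 24.8, 32.7 and 30.8 CPM in WT and 14.1, 11.9 and 14.3 CPM in KO. All KO libraries were well below all WT libraries, and the fall of 1.13 on the log2 scale (a log2 fold change of -1.13, SE 0.23, edgeR adjusted p = 0.00737) passed in all 14 alternatives. Plpp7 (NET39), a nuclear envelope transmembrane protein of muscle, had 40.9, 36.1 and 36.3 CPM in WT and 23.2, 23.7 and 17.8 CPM in KO. Its log2 fold change of -0.81 (SE 0.21, edgeR adjusted p = 0.0332) lost the call without WT replicate 1, 2 or 3 or KO replicate 3 (edgeR adjusted p 0.0611 to 0.118), with DESeq2 (0.0912) and with library totals (0.110).

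The summed fibre markers were lower in KO as well, as given above, and their part in the lower Mlip and Plpp7 was not tested. Emd and Syne2 came next in this list and did not pass. Emd (emerin, an inner membrane protein that binds lamins) had 29.9, 16.4 and 30.8 CPM in WT and 37.3, 41.2 and 59.6 CPM in KO, with a log2 fold change of 0.85 (edgeR adjusted p = 0.0701). It passed as higher with library totals (0.0141) and with no filter (0.00462). Syne2 (nesprin-2, a giant outer membrane protein of the LINC complex) averaged 39.4 ± 1.33 CPM in WT and 23.7 ± 8.07 CPM in KO (edgeR log2 fold change -0.72, adjusted p = 0.0971). It passed as lower with no filter (0.0310). Of the 23 tested genes, 7 had all KO libraries below all WT libraries and 2 had them above, against 12.2% and 13.5% of all genes.

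**Figure D3:**
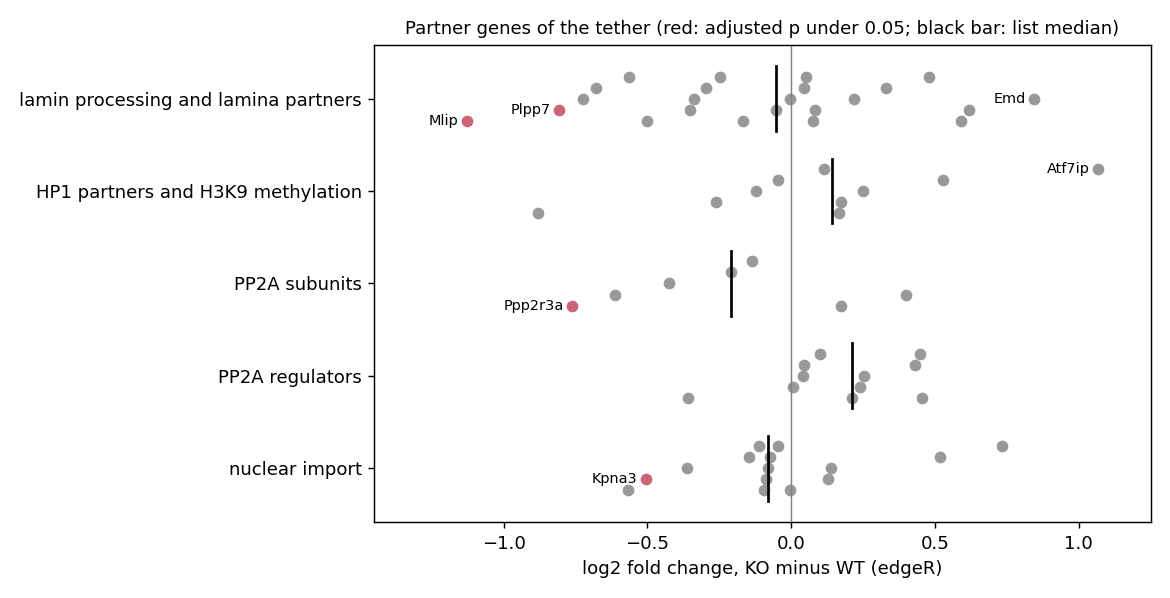
Log2 fold change, KO minus WT (horizontal axis), of each tested gene in 5 lists of partner genes (rows), with a black bar at each list's median. Red points passed at an adjusted p under 0.05: Mlip, Plpp7, Ppp2r3a and Kpna3, all lower in KO; Emd and Atf7ip are labelled for their place in the text.

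Few HP1 partners and enzymes of its histone mark were read deeply enough to be tested. Of 30 genes 10 were tested, and 0 rose and 0 fell (edgeR adjusted p under 0.05). An unadjusted p under 0.05 was found for 2 of the 10, against 20% of all genes, and DESeq2 and limma-voom called 0. The median log2 fold change was 0.14, and 0.045 to 0.24 with each library left out, lowest without KO replicate 1. In those fits 11 or 12 of the genes were tested. The methyltransferase genes Suv39h1 and Suv39h2 were among the 20 below the filter, at 2.54 and 4.01 CPM (Suv39h1) and 0 and 0.208 CPM (Suv39h2) in WT and KO. Atf7ip, a partner of the methyltransferase SETDB1, had 5.11, 5.45 and 6.85 CPM in WT and 11.6, 14.99 and 10.3 CPM in KO (edgeR log2 fold change 1.07, adjusted p = 0.0729). It passed as higher with library totals (0.0228). Its libraries did not overlap between genotypes.

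Ppp2r3a, a regulatory subunit gene of PP2A, was lower in KO, while the scaffold and catalytic genes above did not pass. Of 17 further subunit genes 7 were tested, 1 fell, 0 rose and 6 did not pass, against 3.28% lower among all genes. The median log2 fold change was -0.21, and -0.55 to -0.14 with each library left out (-0.55 without KO replicate 3). The filter passed 7 to 9 of the genes in those fits (9 without KO replicate 3), so these medians are partly over other genes. Ppp2r3a encodes a B'' subunit and had 99.95, 102 and 89.0 CPM in WT and 50.8, 56.2 and 64.2 CPM in KO. The genotypes were well apart, and the log2 fold change of -0.76 (SE 0.15, edgeR adjusted p = 0.00760) passed in all 14 alternatives. Ppp2r2a (a B subunit) averaged 26.9 ± 5.32 and 17.5 ± 5.0 CPM (edgeR log2 fold change -0.61, adjusted p = 0.191). Ppp2r5c (a B' subunit) averaged 34.2 ± 6.19 and 45.2 ± 2.69 CPM (edgeR log2 fold change 0.40, adjusted p = 0.264). It passed as higher with library totals (0.0481).

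Libraries of the genotypes separated in the makeup of their regulatory subunit reads, a measure in which Ppp2r3a has a large part. Of all reads from the 15 regulatory subunit genes (307 to 364 per library), the B'' genes made up 50.3 ± 3.32% in WT and 41.2 ± 1.82% in KO. For the B' genes the shares were 27.0 ± 3.90% and 38.3 ± 2.07%. The lowest KO share of B' was 36.0% (Wilson 95% interval 31.2 to 41.1%) and the highest WT share was 31.1% (26.5 to 36.1%), so the libraries did not overlap although these counting intervals did. These shares are tied, since a smaller B'' part raises the others. Summed B' levels overlapped between genotypes (67.9, 57.9 and 76.0 CPM in WT and 75.3, 78.7 and 74.5 CPM in KO), and none of the 3 tested B' genes passed. Summed B'' levels did not overlap (118 to 134 CPM in WT and 79.3 to 87.1 CPM in KO). Most B'' reads came from Ppp2r3a, with 137 of 171, 149 of 197 and 130 of 172 in WT. In KO it gave 83 of 130, 90 of 127 and 112 of 152. The B'' difference is therefore not separate from the lower Ppp2r3a given above. The other tested B'' gene did not pass (edgeR log2 fold change -0.21, adjusted p = 0.653). Shares of the B genes (14.4 ± 1.84% and 10.98 ± 2.52%) and of the striatins (8.40 ± 0.699% and 9.56 ± 2.04%), which are scaffolds of a separate PP2A complex, overlapped between genotypes. Summed B levels did not overlap (30.1 to 40.9 CPM in WT and 17.1 to 28.1 CPM in KO). The 1 tested B gene, Ppp2r2a, did not pass. Summed striatin levels overlapped (19.1 to 23.4 CPM in WT and 15.9 to 24.6 CPM in KO). This grouping was chosen after the values were seen and was not tested; a share needs no scaling between libraries.

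**Figure D4:**
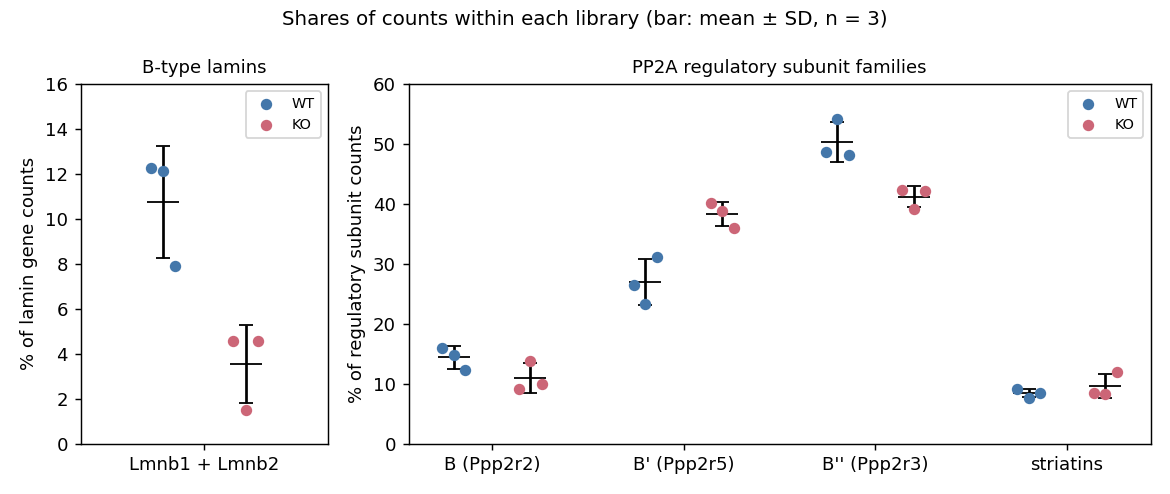
Left: percent of lamin gene counts that came from Lmnb1 and Lmnb2; right: percent of PP2A regulatory subunit counts in each of 4 families; points are libraries, bars the mean ± SD (n = 3). KO libraries lie below WT for the B-type lamins (3.54 against 10.8%) and the B'' family (41.2 against 50.3%) and above WT for B' (38.3 against 27.0%). Most B'' counts came from Ppp2r3a.

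Regulators of the phosphatase and the nuclear import machinery, which carries lamins and PRR14 into the nucleus, completed the lists. The table held 13 PP2A regulators, of which 11 were tested and 0 passed (4 had an unadjusted p under 0.05, against 20% of all genes, and DESeq2 and limma-voom called 0). Of the 11, 10 had a positive log2 fold change, as 52% of all genes did. Their median of 0.21 rested on KO replicate 1, without which it was -0.0071. Summed levels of the 13 regulators did not overlap, at 755 to 759 CPM in WT and 897, 826 and 824 CPM in KO. Arpp19 alone gave 260.5 to 269.7 CPM of these in WT and 290.6 to 346 CPM in KO. Tiprl, which binds the catalytic subunit, averaged 39.8 ± 1.74 and 54.3 ± 8.78 CPM (edgeR log2 fold change 0.45, adjusted p = 0.172). It passed as higher with library totals (0.0286), as did Arpp19 and Igbp1. With that scaling 653 of all 6680 tested genes passed as higher, and the median of all genes was 0.251. Lcmt1, the methyltransferase of the catalytic subunit, averaged 75.4 ± 2.95 and 58.7 ± 5.52 CPM (edgeR log2 fold change -0.36, adjusted p = 0.200). The import list held 15 genes, all tested, the export receptor gene Xpo1 among them. Of the 15, Kpna3 fell, 0 rose and 14 did not pass. Among all genes 3.28% were lower and 6.26% passed in either direction, the latter near the share of this list.

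Kpna3, an importin alpha, had 129, 133 and 133 CPM in WT and 83.2, 99.9 and 95.1 CPM in KO (edgeR log2 fold change -0.50, SE 0.14, adjusted p = 0.0445). Its call was lost without any 1 of the 6 libraries (edgeR adjusted p 0.0538 to 0.154), with DESeq2 (0.112) and with library totals (0.238). Tnpo1 (transportin) and Kpna1 (a further importin alpha) had log2 fold changes of 0.73 and -0.36 (edgeR adjusted p = 0.205 and 0.314).

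Markers of other cell types were summed for each list. On the TMM scale the sums of endothelial cells (320 to 366 CPM in WT and 325 to 386 in KO), fibroblasts (3907 to 5933 and 3810 to 4767), satellite cells (22.6 to 40.1 and 26.4 to 41.0), Schwann cells (153 to 268 and 137 to 207), adipocytes (242 to 1022 and 572 to 823) and red blood cells (1623 to 4002 and 1401 to 2016) overlapped between genotypes. With library totals the endothelial sums did not overlap (273 to 338.4 CPM in WT and 338.4 to 415 in KO, touching at this rounding). On the TMM scale 1 of the 10 endothelial markers, Cldn5, had all KO libraries above all WT libraries, as 13.5% of all genes did. Cldn5 had 17.5 to 18.5 CPM in WT and 22.9 to 30.6 in KO (edgeR adjusted p = 0.192). Of the 10 markers 3 had a positive log2 fold change and 7 a negative one, with a median of -0.024. These lists and the leukocyte and dividing cell lists held 46 tested markers. Of these, 0 passed in edgeR, DESeq2 or limma-voom, against 6.26% of all genes in edgeR. An unadjusted p under 0.05 was found for 2 in edgeR, against 20% of all genes, for 5 in DESeq2 and for 4 in limma-voom. With library totals 1 passed as higher, as did 653 of all 6680 tested genes. Defining markers were low for satellite cells (Pax7, 0 to 1.87 CPM), Schwann cells (Sox10, 0 in all WT libraries) and dividing cells (Mki67, 0 to 2.19 CPM), and higher for endothelial cells (Pecam1, 59.96 to 86.5 CPM) and adipocytes (Adipoq, 14.4 to 56.9 CPM).

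Genes whose levels followed Prr14 most closely over the 6 libraries were Znfx1, mt-Cytb and Map1lc3a, each with a Pearson r of 0.988 or 0.989 on log2 CPM. For Lmna these were Nfs1 (0.990), Yipf4 (0.983) and Snrpa (0.977), and for Ppp2ca Denr (0.995), Dnph1 (0.964) and Cltb (0.941). With 6 points, 78 genes reached an r above 0.9 with Prr14, 40 with Lmna and 27 with Ppp2ca, and all share the same libraries and scaling. Between the tether genes, r ran from -0.733 (Cbx1 and Ppp2ca) to 0.758 (Prr14 and Ppp2ca). KO replicate 2 was the highest KO library for Prr14, Lmna and Ppp2ca.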

How the data were processed

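Per the labels' protocols, cDNA was made by template switching, amplified over 14 cycles of PCR and sequenced on a PromethION. The submitters' processing notes name minimap2, DESeq2 1.6.3 and GRCm38. The sources used here name no counter, annotation release or use of strand. The authors deposited whole-number read counts per Ensembl gene, which were tested here, and CPM, used only as a check on library totals (3.09 to 4.10% of reads lay outside the listed genes). Symbols of all 10 genes matched the reference by identifier. Positions and exon lengths are from GENCODE M21.

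Counts of all 6 libraries were tested across all genes in R 4.3.3 with edgeR 4.0.16 (filterByExpr with minimum count 10 and total 15, TMM, quasi-likelihood test, Benjamini-Hochberg over 6680 genes). An SE is the log2 fold change divided by the square root of F, and 95% intervals use its degrees of freedom. A gene with 3 counts had 1.72 to 2.19 CPM, depending on the library. Shares were compared by exact permutation over libraries, and 3 against 3 cannot go below 0.1. Steps were tested on simulated data. Near-identical transcripts were sought at 90% identity over 300 bases. Alternatives used other scalings, filters, DESeq2 1.42.0, limma 3.58.1 and each library left out. Replicates are numbered in accession order.

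The genes and lists were chosen with earlier results of these data known. From each partner list every passing gene and the 2 with the smallest p otherwise are named, except 1 gene that is not reported here; the PP2A family grouping, Arpp19, Igbp1, Suv39h1 and Suv39h2 were chosen after their values were seen. Genes resembling Prr14, Lmna and Ppp2ca were ranked by Pearson r of log2 CPM with a prior count of 2.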

Additional observations from a re-analysis of the deposited data

How the results depend on the processing

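Of 14 alternatives, only library totals called any tether gene (1, Ppp2r1a, at 0.61); the other 13 called 0, the 6 leave-one-out fits included. Where a log2 fold change near 0 changed sign, its adjusted p was above 0.9. This happened to Ppp2ca with library totals (0.035), to Cbx5 with DESeq2 size factors (-0.0033) and the DESeq2 test (-0.0045), and with single libraries left out to Lmna (-0.0054 to 0.43, below 0 without KO replicate 2), Cbx1 (-0.034 to 0.19, below 0 without KO replicate 3) and Cbx5 (-0.10 to 0.14, below 0 in 4 of the 6 fits). Prr14 stayed negative in all 14 (-1.80 to -0.77). Over all genes, 653 were higher with library totals and 344 with no filter, against 199, and 362 were lower with no filter, against 219; leaving out each library gave 83 to 179 higher and 154 to 187 lower. The share of B-type lamins differed by -12 points per kilobase of exon against -7.22, and by -8.65 to -6.21 with each library left out. With library totals the summed PP2A subunit list overlapped between genotypes (212 to 250 CPM in WT and 213 to 226 in KO). With TMM it was lower in KO without overlap (249 to 262 and 195 to 214). The summed lamina partner list also overlapped with library totals (1587 to 1638 and 1615 to 1763 CPM). With TMM it was lower in KO (1696 to 1921 and 1540 to 1617). The summed import list was lower in KO with TMM (964 to 1015 and 861 to 938 CPM). With library totals it was higher in KO (865 to 920 and 939 to 988). Sums of the HP1 partner and PP2A regulator lists were higher in KO without overlap under both scalings. Medians of all 5 partner lists were positive with library totals (0.029 to 0.44), where the median of all genes was 0.251. No paired analysis was possible because the genotypes share only 1 number in their labels. At this depth Prr14, Prr14l, Lmnb1 and Lmnb2 had 0 to 12 counts per library, so small differences were not detectable.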
